A study of Mus musculus with 17 samples.

Results

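Cholesterol and fatty acid synthesis was followed through 30 genes chosen by name among the 38734 genes of the expression table. The sterol branch held 17 genes (the enzymes and the sterol carrier Stard4), the fatty acid branch held 10, and 3 genes were regulators of the SREBP system. All 30 were found. Msmo1 was listed under its older name Sc4mol and was matched by its identifier. RNA was measured in 17 libraries of mouse cells, from embryonic fibroblasts (MEF) through reprogramming to induced pluripotent stem cells (iPSC), to ask how loss or gain of the microRNA miR-203 acts on reprogramming. WT cells had the genotype miR-203 WT with OSKM, KO cells had miR-203 KO with OSKM, and KI cells had ColA1_miR203, Rosa26rtTA and OSKM. OSKM is a doxycycline-driven cassette of the reprogramming factors Oct4, Sox2, Klf4 and cMyc, and doxycycline also switches on miR-203 in KI cells. Every library, MEF and day 0 included, was labelled as given doxycycline (1 µg/ml) for 2 weeks. Each genotype gave 1 library as MEF and 1 at each of days 0, 4, 6 and 7, and WT and KO gave 1 iPSC library each. The sources used here do not say how many embryos or clones stand behind a library, and the labelled genotypes of WT and KO do not list Rosa26rtTA.

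Animal cells build cholesterol from acetyl-CoA by way of mevalonate, farnesyl units and squalene, which is closed into lanosterol and then trimmed to cholesterol. Fatty acids start from the same acetyl-CoA, which is carboxylated, joined into palmitate and then elongated and desaturated. Both branches are driven by the SREBP transcription factors, with Srebf2 known mainly for sterol genes and Srebf1 mainly for fatty acid genes, and the protein Insig1 holds SREBPs back when sterols are plentiful. SREBPs bind sterol regulatory elements and act together with NF-Y, which binds the CCAAT box.

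Promoter windows of 250 bases before to 50 bases after the start, from RefSeq on GRCm38.p6, were at hand for 23 of the 30 genes. Of these, 4 are shown because their RNA rose or differed between KO and KI cells (below), and because they differ in the motifs they hold. Capitals mark the sterol element TCACNCCAC and the CCAAT box, searched on both strands, so that the CCAAT box also reads ATTGG. The windows are chr13:119690101-119690400 for Hmgcs1, chr13:8885356-8885655 for Idi1, chr15:82147019-82147318 for Srebf2 and chr3:129532136-129532435 for Elovl6, all on the plus strand.
Hmgcs1: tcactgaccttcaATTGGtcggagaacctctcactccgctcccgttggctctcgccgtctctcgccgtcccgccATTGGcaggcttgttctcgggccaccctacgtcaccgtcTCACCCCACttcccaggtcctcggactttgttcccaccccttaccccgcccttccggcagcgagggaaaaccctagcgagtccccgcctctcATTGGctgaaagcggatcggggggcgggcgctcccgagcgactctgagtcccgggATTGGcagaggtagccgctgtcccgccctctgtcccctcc
Idi1: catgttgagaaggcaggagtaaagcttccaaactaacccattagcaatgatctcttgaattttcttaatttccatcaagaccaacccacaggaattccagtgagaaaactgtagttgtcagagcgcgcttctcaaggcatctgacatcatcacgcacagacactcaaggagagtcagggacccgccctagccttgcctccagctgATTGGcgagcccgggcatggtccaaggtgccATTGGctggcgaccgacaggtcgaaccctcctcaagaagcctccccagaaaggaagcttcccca
Srebf2: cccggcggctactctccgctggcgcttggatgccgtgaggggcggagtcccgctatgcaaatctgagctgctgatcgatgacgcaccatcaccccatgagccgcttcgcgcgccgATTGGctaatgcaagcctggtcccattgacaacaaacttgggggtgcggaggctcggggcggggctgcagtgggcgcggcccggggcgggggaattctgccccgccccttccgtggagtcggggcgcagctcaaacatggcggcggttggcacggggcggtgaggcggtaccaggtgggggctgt
Elovl6: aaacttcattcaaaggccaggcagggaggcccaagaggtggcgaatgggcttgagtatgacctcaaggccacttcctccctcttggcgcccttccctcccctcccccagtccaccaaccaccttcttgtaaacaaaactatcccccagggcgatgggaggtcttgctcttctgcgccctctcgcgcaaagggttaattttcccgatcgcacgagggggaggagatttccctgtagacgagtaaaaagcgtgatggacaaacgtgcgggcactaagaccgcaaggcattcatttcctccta
Hmgcs1 was the single member of the 23 whose window held the sterol element in these letters, 137 bases before the start, while 1.44% of 27025 genes with a window held it. At least 1 window held the CCAAT box in 13 of 13 sterol genes, 3 of 3 regulators and 4 of 7 fatty acid genes, against 41.1% of all genes. The E-box CACGTG stood in a window of 5 of the 23 genes, or 21.7%, against 8.09% of all genes. Pmvk, Dhcr7 and Srebf1 have more than 1 window and were counted once if any window matched, as were all genes, and each has a window without the CCAAT box. These matches describe letters, not binding, and a window without a match says nothing about the factor.

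The levels of the 30 genes covered a wide range. FPKM counts fragments per transcript length and sequencing depth, so levels can be compared between genes. Scd2, a stearoyl-CoA desaturase, had the highest mean over the 17 libraries (FPKM 164), followed by Msmo1, a sterol C4 methyl oxidase, at 144. Acacb, the mitochondrial acetyl-CoA carboxylase, had the lowest mean at 1.97. The ratio of the highest library to the lowest had a median of 3.11 over the 30 genes and was above 2 for 27 of them. It was smallest for Cyp51, the lanosterol demethylase (1.73), and Srebf1 (1.82), and largest for Acacb (150), which was near 0 in most libraries. Elovl6, which elongates palmitate, spanned 9.92 times, Pmvk, the phosphomevalonate kinase, 5.80 times, and Dhcr7, the reductase of the last step towards cholesterol, 5.15 times. Scd1 and Scd2 are close copies, so reads may be split between them with error.

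**Figure D1:**
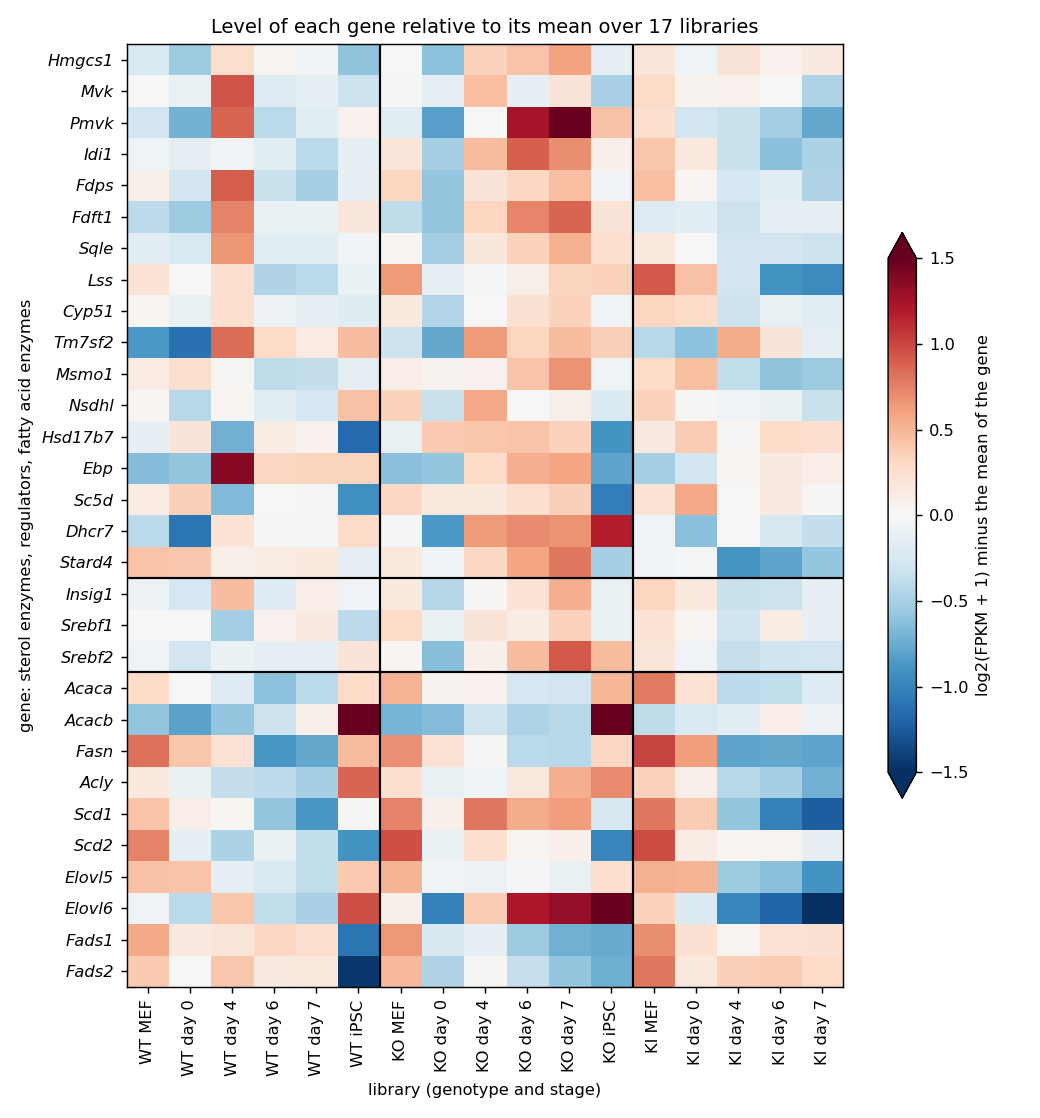
Level of each of the 30 genes (rows) in each of the 17 libraries (columns, by genotype and stage), as log2(FPKM + 1) minus the mean of that gene over all libraries; colours are capped at 1.5 either way. Black lines part the sterol genes, the regulators and the fatty acid genes, and the genotypes. Most sterol rows are red in the KO libraries of days 6 and 7, and the fatty acid rows Fads1, Fads2 and Scd2 are blue in iPSC.

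The sterol branch stood higher relative to the fatty acid branch at days 4, 6 and 7 than in MEF, at day 0 and in iPSC. As a mean of log2(FPKM + 1), the sterol branch minus the fatty acid branch was −0.25 in WT, −0.19 in KO and −0.23 in KI in MEF. At day 0 the difference was −0.04, 0.06 and 0.03 in the same order. It stood at 0.60, 0.40 and 0.39 at day 4, at 0.41, 0.64 and 0.36 at day 6 and at 0.41, 0.76 and 0.40 at day 7. In iPSC it was −0.20 in WT and −0.18 in KO. All 9 libraries of days 4 to 7 lay above all 8 others, in every genotype. Acacb, 1 of the 10 fatty acid genes, was at or below FPKM 1.08 outside iPSC and pulls the fatty acid mean down there. The sign of the difference is therefore not read, only its shift between the stages before iPSC. Acacb stood at 16.7 and 8.78 in iPSC of WT and KO. Its rise is part of the shift from day 7 to iPSC, so the size of that shift is not read. This is a description of the 2 lists, with no test.

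The means behind this gap had different values by genotype. In WT the late libraries (days 4, 6 and 7) minus the early ones (MEF and day 0) gave 0.25 for the sterol mean and −0.37 for the fatty acid mean, with SDs of 0.27 and 0.15 over the late days. In KO the differences were 0.60 (SD 0.14) and −0.07 (SD 0.06). In KI they were −0.31 (SD 0.08) and −0.80 (SD 0.09).

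**Figure D2:**
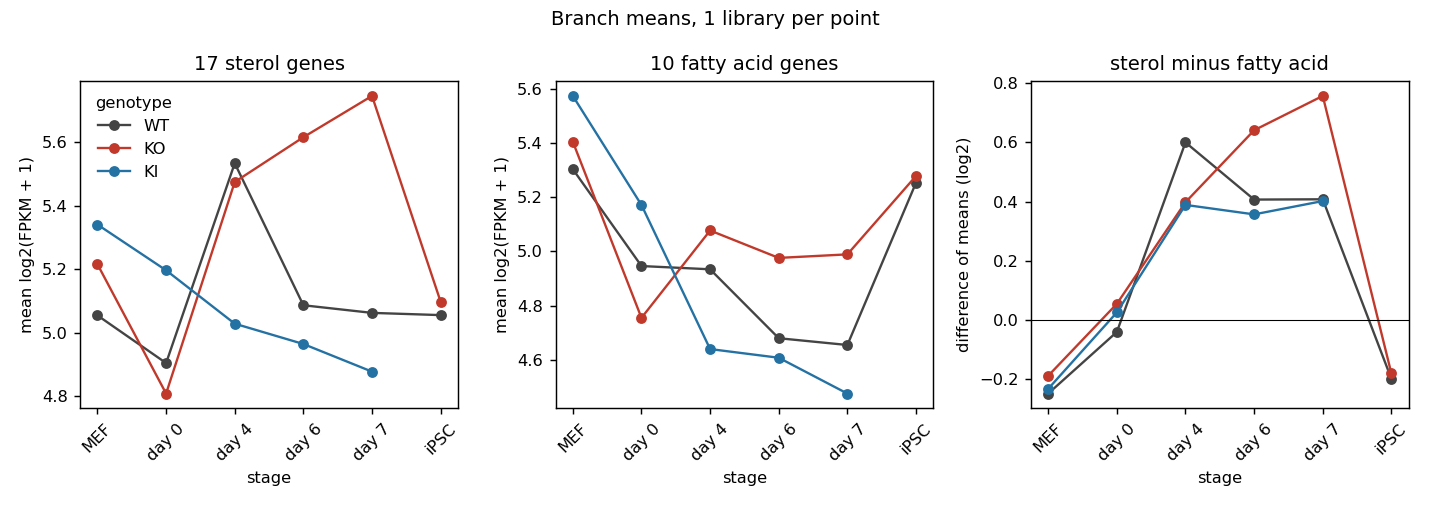
Mean log2(FPKM + 1) of the 17 sterol genes, of the 10 fatty acid genes, and the difference of the means, by stage; each point is 1 library and colours are genotypes. The difference lies between 0.36 and 0.76 at days 4, 6 and 7 in all genotypes, and between −0.25 and 0.06 at the other stages. The fatty acid mean includes Acacb, which is near 0 outside iPSC, so neither the sign of the difference nor the size of its shift into iPSC is read.

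Libraries differed in ways that touch these results. The sum of FPKM ran from 510501 to 690770, and the read depth is unknown. The WT library of day 4 stood apart: Ebp (183), Fdps (108), Sqle (71.6) and Mvk (63.8) had their highest FPKM of all 17 libraries there, and Insig2, the relative of Insig1, stood at 14.7 against 25.8 to 106 in the others. Xist, made from the inactive X chromosome of female cells, was at FPKM 46.9 and 48.0 in WT MEF and WT day 4 and at no more than 3.23 elsewhere, and the Y-linked Ddx3y was at 0.02 and 2.74 there and 1.51 in WT iPSC, against 14.5 to 20.0 in the rest. Ebp and Nsdhl lie on the X chromosome. Mir203 was listed at 0 in all WT and KO libraries, so the deletion is unchecked, and was at 569, 185, 7903, 5863 and 5470 in the KI libraries in order of stage.

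Cell markers moved with genotype and stage too. The summed FPKM of 15 macrophage markers was 1452 to 4286 in WT and 1993 to 2283 in KI at the late days, but 44.5 to 126 in KO. For the 10 epithelial markers the late range was 20.6 to 137 (WT), 78.8 to 1397 (KO) and 1.28 to 2.76 (KI). The 10 pluripotency markers gave 47.5 to 291, 287 to 1650 and 0.996 to 1.504 in the same order, and the 15 cell cycle genes 320 to 522, 347 to 784 and 113 to 152. Fibroblast markers gave 16830 to 24740, 7513 to 14660 and 23670 to 27460, all 10 above FPKM 1 throughout. The 11 adipocyte markers summed to 49.4 to 65.9 in WT, 22.4 to 30.6 in KO and 72.0 to 121 in KI at the late days, against 14.9 to 23.3 early over all genotypes. From early to late 4 of the 7 tested (57.1%) rose in WT and in KI (Lpl, Cebpa, Cd36 and Lipe), and 3 (42.9%) rose in KO. Of all genes 17.1% were called higher in WT, 14.6% in KI and 13.5% in KO. Pparg, Fabp4 and Dgat2 were tested and not called in WT or KI, while Adipoq, Plin1 and Cidec had an FPKM of at most 0.09 in every library. The part of these shifts in the results below was not tested, and in bulk RNA fewer cells of a type and less RNA per cell cannot be told apart.

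Between MEF and day 0 most differences lay below 0 and none passed the test. Of 30 members, 26 had a difference below 0, among them all 10 fatty acid genes, and the median was −0.32 on the log2 scale against −0.01 for all 14240 genes tested. Scd2 came nearest to a call. Its FPKM was 256, 299 and 302 in MEF of WT, KO and KI and 139, 141 and 166 at day 0. All 3 day 0 values lay below all MEF values, a log2 difference of −0.94 (SE 0.15; adjusted p = 0.092, limma). No member was called, 6 were below an unadjusted p of 0.05, and 0.0492% of all genes were called in either direction. In these stage comparisons the 3 genotypes stood in for the samples of a stage.

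At day 4, 4 sterol genes were higher than at day 0. Tm7sf2, a sterol C14 reductase, had FPKM 8.79, 11.4 and 12.8 at day 0 and 36.8, 31.9 and 30.2 at day 4, in the order WT, KO, KI. The groups did not overlap, and the log2 difference was 1.51 (SE 0.19; adjusted p = 0.00024, limma). Dhcr7 went from 11.01, 13.1 and 15.5 to 28.6, 38.7 and 24.7, again without overlap, a difference of 1.14 (SE 0.22; adjusted p = 0.0042, limma). Ebp, the sterol isomerase, had FPKM 46.5, 47.0 and 57.7 at day 0 and 183, 86.9 and 72.3 at day 4, a difference of 1.05 (SE 0.32; adjusted p = 0.035, limma). Hmgcs1, which makes HMG-CoA at the head of the mevalonate pathway, rose from 51.4, 48.4 and 71.1 to 89.4, 95.1 and 85.2, by 0.67 (SE 0.18; adjusted p = 0.023, limma). Those 4 of 30 members (13.3%) stood against 12.3% of all genes called higher. No member was called lower, while 10% of all genes were. Without the WT library of day 4, Ebp (0.69, adjusted p = 0.14, limma) and Hmgcs1 (0.57, adjusted p = 0.082, limma) were not called. Without the WT libraries 1 member was called, and without the KI libraries 2; both scalings gave 7, of which 3 (upper-quartile) or 2 (quantile) were lower.

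From day 4 to day 7 no member was called, 2 had an unadjusted p below 0.05, and 0.0211% of all genes were called.

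Entry into the iPSC state split the fatty acid branch. Of its 10 genes, 5 were higher in iPSC than at day 7 and 3 were lower, while of the 17 sterol genes none was higher and 3 were lower. Over all 30 members 16.7% were called higher and 20% lower, against 25.6% and 24.1% of all genes, so calls were not more frequent among the members. Without the WT libraries 1 was higher and 4 lower, and without the KI libraries 3 and 3. The median of all genes stood at 0.11 in this comparison and at 0.12 in that of iPSC with MEF.

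The genes that rose were Acacb, Fasn, Acly, Acaca and Elovl5. Acacb had FPKM 0.29, 0.20 and 0.49 in MEF, 0.11 to 1.08 at days 0 to 6, 1.06, 0.46 and 0.83 at day 7, and 16.7 and 8.78 in iPSC of WT and KO. It was at or below 1.08 in 15 libraries and higher in both iPSC libraries, a difference from day 7 of 3.0 (SE 0.27; adjusted p = 1.4e-05, limma). Fasn, the fatty acid synthase, went from 30.4, 39.1 and 29.8 at day 7 to 72.2 and 65.3, by 1.00 (SE 0.28; adjusted p = 0.013, limma). Acly, which makes cytosolic acetyl-CoA from citrate, stood at 52.1, 108 and 44.3 at day 7 and at 136 and 121 in iPSC, by 0.95 (SE 0.28; adjusted p = 0.017, limma). Acaca, the cytosolic acetyl-CoA carboxylase, rose from 11.6, 12.7 and 13.6 to 19.2 and 22.6, and Elovl5, an elongase of polyunsaturated chains, from 28.4, 34.2 and 19.4 to 48.8 and 44.3. Their differences were 0.71 (SE 0.16; adjusted p = 0.0044, limma) and 0.70 (SE 0.24; adjusted p = 0.033, limma). For each of these 5 genes both iPSC values lay above all day 7 values.

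The 3 fatty acid genes that fell, Scd2, Fads1 and Fads2, encode desaturases. Scd2 went from 118, 161 and 140 at day 7 to 81.4 and 77.0 in iPSC, by −0.76 (SE 0.17; adjusted p = 0.0042, limma). Fads1, the delta-5 desaturase, went from 48.2, 24.4 and 47.9 to 18.6 and 23.7, and Fads2, the delta-6 desaturase, from 57.8, 34.3 and 63.6 to 18.3 and 30.7. Their KO values at day 7 were already close to the iPSC values. The differences were −0.76 (SE 0.26; adjusted p = 0.031, limma) and −0.93 (SE 0.26; adjusted p = 0.014, limma). The desaturase Scd1 was not called, at 17.1, 50.3 and 13.0 at day 7 and 32.4 and 27.1 in iPSC. Fads1 and Fads2 are neighbours on chromosome 19, Fads1 at 10182888 to 10196877 and Fads2 at 10062765 to 10101746 (GRCm38).

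Among sterol genes, those that fell in iPSC act in different parts of the pathway. Hsd17b7, a sterol 3-keto reductase, had FPKM 19.7, 24.1 and 22.6 at day 7 and 7.79 and 9.67 in iPSC, its 2 lowest values of all, a difference of −1.21 (SE 0.20; adjusted p = 0.00075, limma). Sc5d, the sterol C5 desaturase, fell from 39.8, 51.9 and 40.9 to 20.7 and 19.0, by −1.08 (SE 0.21; adjusted p = 0.0020, limma). Hmgcs1 fell from 72.6, 114 and 82.3 to 48.6 and 67.3, by −0.58 (SE 0.21; adjusted p = 0.038, limma). In iPSC both Hsd17b7 and Sc5d stood below every MEF value.

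Set against MEF, 3 members were higher in iPSC (10%) and 5 lower (16.7%), where 20.5% and 21.4% of all genes were called. Acacb (3.42, SE 0.27; adjusted p = 3.4e-06, limma), Tm7sf2 (0.93, SE 0.21; adjusted p = 0.0049) and Dhcr7 (0.82, SE 0.26; adjusted p = 0.024) were higher. Dhcr7 stood at 18.4, 24.2 and 23.6 in MEF and at 30.3 and 56.8 in iPSC, the KO value being the highest of all libraries. Lower were Scd2 (−1.79), Fads2 (−1.52), Fads1 (−1.48), Sc5d (−1.17) and Hsd17b7 (−0.96), with adjusted p from 1.3e-05 to 0.0030 (limma). Fasn, Acly, Acaca and Elovl5, higher than at day 7, were not called against MEF. Both scalings gave 3 higher and 11 lower, and leaving out WT gave 1 and 4.

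**Figure D3:**
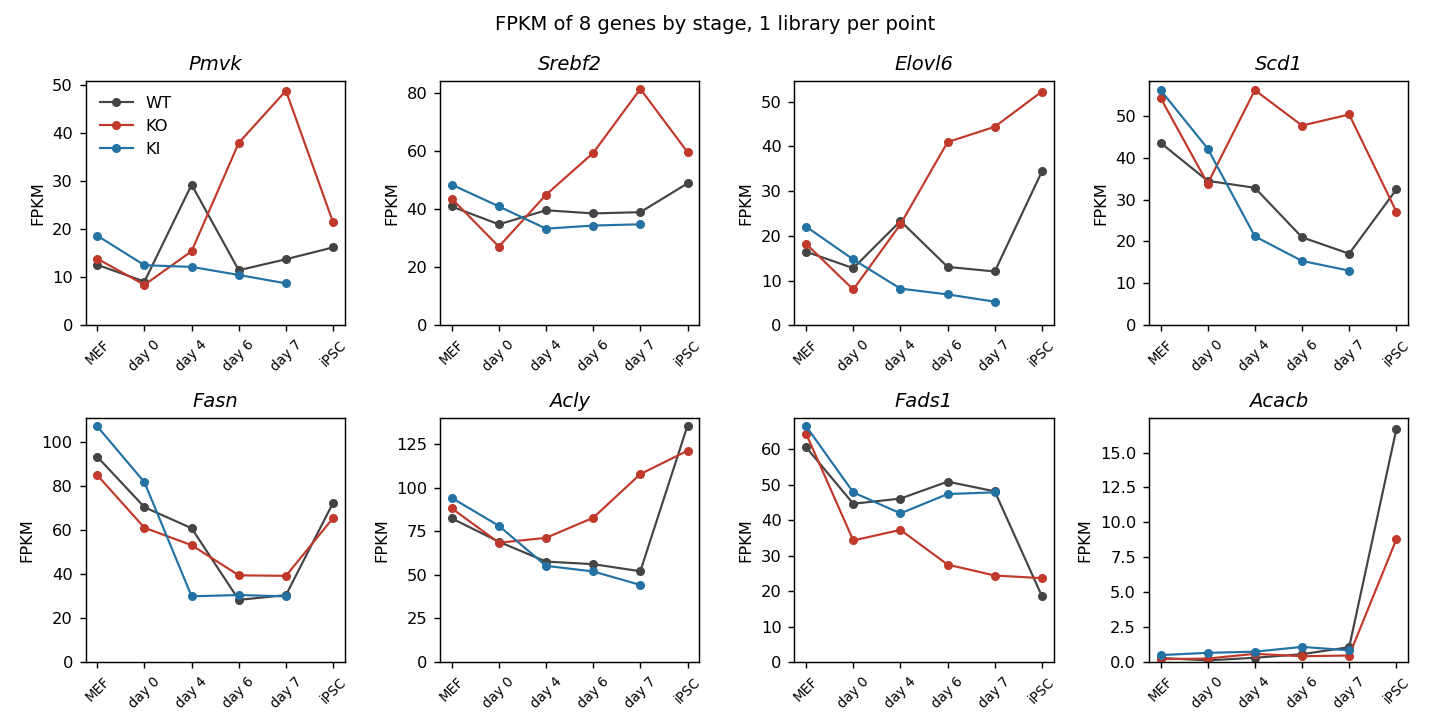
FPKM of Pmvk, Srebf2, Elovl6, Scd1, Fasn, Acly, Fads1 and Acacb by stage, 1 library per point, coloured by genotype; each axis starts at 0. Pmvk, Srebf2, Elovl6 and Acly climb in KO up to day 7, Scd1 at day 7 is below MEF in WT and KI and near MEF in KO, Fads1 is lowest in KO at days 0 to 7, and Acacb is above 2 in the iPSC libraries alone.

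The change from early to late libraries was then taken within each genotype, with 2 early and 3 late libraries standing in for samples. The spread in this fit therefore holds real change between days. Acacb fell below the filter on low values, which left 29 members among 13837 genes. For WT, KO and KI the median change of all genes was −0.02, 0.15 and −0.17, and members are to be read against it. With upper-quartile scaling these medians were −0.02, −0.03 and −0.02. The same scaling turned the split of all called genes in KO from 1862 higher and 1088 lower to 1294 and 1720, and in KI from 2016 and 3508 to 2613 and 2833.

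In WT, 3 genes of late sterol steps rose and 2 fatty acid genes fell. Called higher were Tm7sf2 (1.40, SE 0.25; adjusted p = 0.0014, limma), Ebp (1.29, SE 0.26; adjusted p = 0.0030) and Dhcr7 (0.80, SE 0.27; adjusted p = 0.038). Fasn had FPKM 93.1 and 70.2 in the early WT libraries and 60.7, 28.2 and 30.4 in the late ones, without overlap, a fall of −1.09 (SE 0.30; adjusted p = 0.016, limma). Elovl5 went from 50.8 and 50.1 to 33.5, 31.6 and 28.4, by −0.68 (SE 0.16; adjusted p = 0.0084, limma). The 3 members called higher were 10.3% and the 2 called lower 6.90%, against 17.1% and 16.1% of all genes. Upper-quartile scaling gave 5 and 5, and leaving out day 6 gave 2 higher and none lower, day 7 2 and 1, and day 4 3 and 5. Without the WT library of day 4 alone 2 were higher and 5 lower, and Dhcr7 was not called (0.72, adjusted p = 0.071, limma).

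In KO, 9 members rose and none fell, 31.0% of the members against 13.5% of all genes called higher and 7.86% called lower. Of the 9, 7 were sterol genes, 1 was the regulator Srebf2 and 1 was Elovl6. Elovl6 had FPKM 18.2 and 8.00 in the early KO libraries and 22.6, 41.0 and 44.4 in the late ones, a rise of 1.44 (SE 0.39; adjusted p = 0.023, limma). Fdft1, the squalene synthase, went from 26.9 and 23.3 to 44.3, 59.0 and 65.2, by 1.11 (SE 0.24; adjusted p = 0.0076, limma). Srebf2 went from 43.6 and 27.1 to 44.97, 59.4 and 81.4, by 0.79 (SE 0.23; adjusted p = 0.034, limma). The late libraries of all 3 genes lay above both early ones.

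The other sterol genes that rose in KO were Dhcr7 (1.11), Ebp (1.08), Tm7sf2 (1.01), Idi1 (0.85), Hmgcs1 (0.77) and Stard4 (0.51), with adjusted p from 0.012 to 0.028 (limma). Idi1, the isopentenyl diphosphate isomerase, had FPKM 32.3 and 19.8 early and 39.8, 53.7 and 46.6 late. Pmvk had FPKM 13.9 and 8.41 early and 15.4, 38.0 and 48.8 late, with day 4 close to MEF, and it was not called (1.42, SE 0.47; adjusted p = 0.052, limma). The median of the 17 sterol genes was 0.51 and that of the 9 fatty acid genes tested −0.31, with all genes at 0.15. Under upper-quartile scaling 7 members were higher and 3 lower, and Srebf2 (0.56) and Stard4 (0.29) were no longer called. The calls changed when single stages were left out, which also leaves fewer libraries for the test. Without day 6 none was called, and without day 7 or day 4 the members called higher were 2 and 12. Without day 0 or without MEF each genotype kept 1 early library, so those counts are left out here. The 2 early KO libraries differed. The KO sterol mean was 5.216 in MEF and 4.809 at day 0, against 5.475, 5.616 and 5.746 at days 4, 6 and 7. The KO fatty acid mean was 5.404 in MEF and 4.755 at day 0, and the late values (5.077, 4.976 and 4.989) lay between these. The rise in KO was therefore smaller from MEF than from day 0, and the fatty acid mean fell when taken from MEF. Loss of calls cannot be told apart from loss of libraries.

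In KI most calls were downward. There 11 members fell (37.9%, against 25.4% of all genes) and 1 rose (3.45%, against 14.6%). Of 9 fatty acid genes tested, 6 fell, and the remaining 3 had differences below 0. Fasn had FPKM 107 and 81.6 early and 29.8, 30.4 and 29.8 late, a fall of −1.61 (SE 0.30; adjusted p = 0.0018, limma). Scd1, a desaturase that makes oleate, went from 56.1 and 42.2 to 21.2, 15.4 and 13.0, by −1.53 (SE 0.29; adjusted p = 0.0020, limma). Elovl6 went from 22.1 and 14.7 to 8.19, 6.90 and 5.27, by −1.31 (SE 0.39; adjusted p = 0.021, limma). In each of these genes all late values lay well below both early ones. Elovl5 (−1.21), Acaca (−0.82) and Acly (−0.76) also fell, with adjusted p from 0.00027 to 0.0099 (limma).

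In the sterol branch of KI cells 5 of 17 genes fell (29.4%), a share close to the 25.4% of all genes. Lss, the enzyme that closes squalene epoxide into lanosterol, had FPKM 52.5 and 37.5 early and 22.2, 14.2 and 13.6 late, a fall of −1.40 (SE 0.30; adjusted p = 0.0036, limma). Msmo1 went from 171 and 191 to 108, 91.7 and 95.1, by −0.88 (SE 0.19; adjusted p = 0.0035, limma). Stard4, a carrier of sterols between membranes, went from 15.4 and 15.8 to 8.20, 8.85 and 10.3, by −0.72 (SE 0.15; adjusted p = 0.0029, limma). Lss and Msmo1 act after squalene has been made. Idi1 (−0.77, adjusted p = 0.012, limma) and Cyp51 (−0.50, adjusted p = 0.048, limma) fell too, Cyp51 not under upper-quartile scaling (−0.31). Tm7sf2 rose (0.72, SE 0.25; adjusted p = 0.037, limma), as in WT and KO. Without the libraries of day 6, 8 members fell and none rose. All 15 cell cycle genes fell in KI as well (median −2.06).

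**Figure D4:**
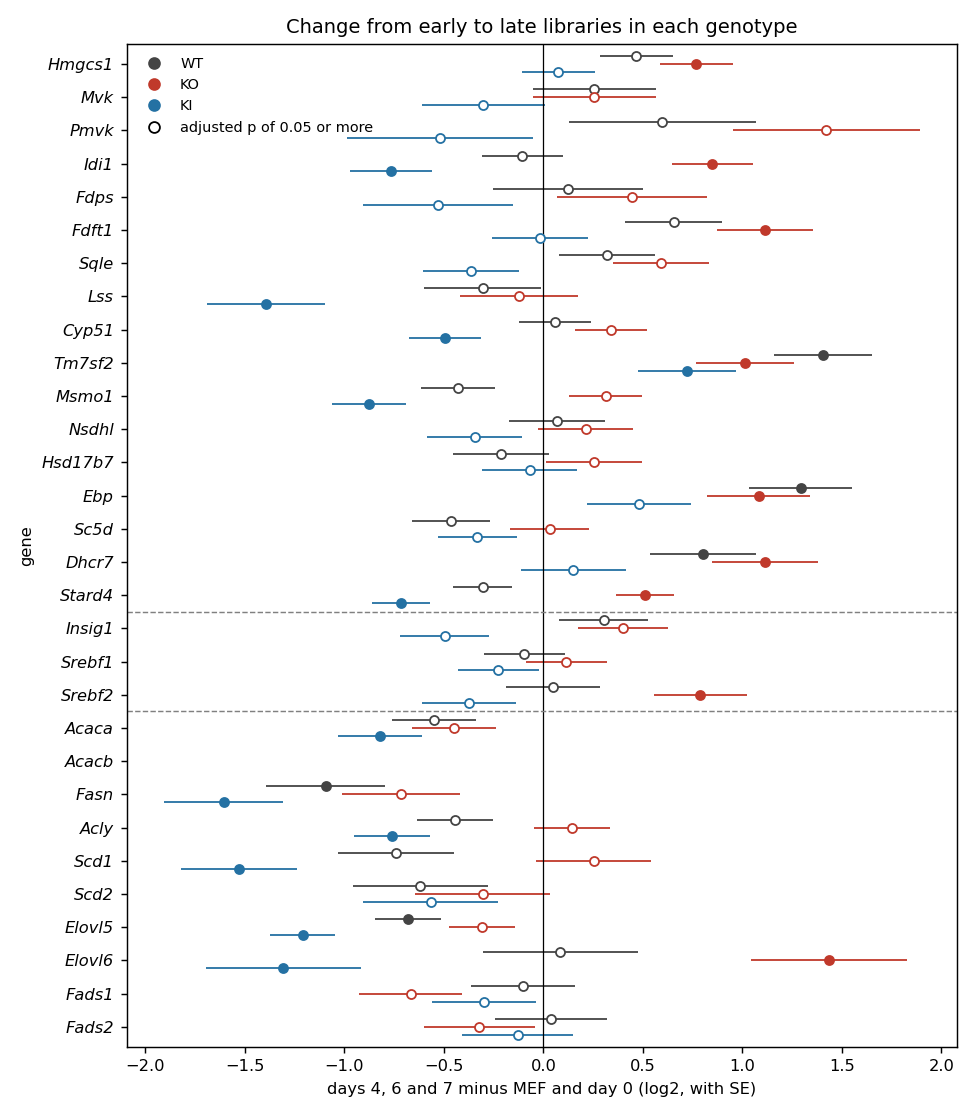
Change of each gene from the early libraries (MEF and day 0) to the late ones (days 4, 6 and 7) within WT, KO and KI, as a log2 difference with its SE; filled points had an adjusted p below 0.05 (limma), open points did not. Acacb was not tested. KO points lie right of KI points for most genes, from a difference of 1.44 against −1.31 for Elovl6, and the reverse holds for Fads1 and Fads2.

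The genotypes were next compared at the same stages. KO and KI share the WT libraries as their reference, so values are given side by side and no overlap between them is drawn. At the late days 5 members were higher in KO than in WT and 2 were lower, against 9.5% and 5.23% of all genes. The median of all genes was 0.17, and −0.01 after upper-quartile scaling. Scd1 had FPKM 32.8, 20.99 and 17.1 in WT and 56.1, 47.7 and 50.3 in KO at days 4, 6 and 7, with no overlap, a difference of 1.14 (SE 0.15; adjusted p = 0.0053, limma). Idi1 stood at 27.3, 25.2 and 21.3 in WT against 39.8, 53.7 and 46.6, a difference of 0.90 (SE 0.17; adjusted p = 0.018, limma). Acly (0.63), Dhcr7 (0.62) and Stard4 (0.45) were higher too, with adjusted p from 0.015 to 0.043 (limma), but Acly and Stard4 were not called with upper-quartile scaling.

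Fads1 and Fads2, desaturases of polyunsaturated fatty acids, were the members lower in KO. Fads1 stood at 46.1, 50.9 and 48.2 in WT and at 37.3, 27.5 and 24.4 in KO, a difference of −0.71 (SE 0.17; adjusted p = 0.033, limma). Fads2 stood at 68.5, 56.9 and 57.8 against 52.1, 40.4 and 34.3, a difference of −0.54 (SE 0.14; adjusted p = 0.044, limma). KO was below WT at each of the 3 days for both.

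Without the WT library of day 4, 17 members were higher in KO and 2 lower, and without all libraries of day 4, 19 and 2. Without the libraries of day 6, or without those of day 7, none was called, and without MEF or without day 0, 1 was higher. Macrophage markers were lower in KO than in WT (14 of 15 called), and epithelial and pluripotency markers were higher (2 of 9 called in each, all above 0).

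KI against WT gave 1 call at the late days. Stard4 had FPKM 16.9, 17.4 and 17.8 in WT and 8.20, 8.85 and 10.3 in KI, a difference of −0.87 (SE 0.11; adjusted p = 0.012, limma). Stard4 was already lower in KI in MEF and at day 0, at 15.4 and 15.8 against 21.9 and 21.5 in WT. Without MEF, day 0, day 6 or day 7 it was not called, and without day 4 2 members were lower. None of the 29 members was higher, and 0.73% of all genes were higher and 1.71% lower. The median of the members was −0.26, with all genes at −0.16. Whether the early to late change differed from that of WT was asked by an interaction term. It called no member for KO, with 6 below an unadjusted p of 0.05 and 0.0795% of all genes called. It called none for KI, with 9 below an unadjusted p of 0.05 and 0.0723% of all genes called. Without the WT library of day 4 the KO count was 8, and 14 without all libraries of day 4.

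KO and KI were also compared with each other, a comparison added after their values had been seen. At the late days 15 of 29 members were higher in KO and 2 lower, against 35.8% and 10.5% of all genes. The median of all genes was 0.30 in KO over KI, and −0.06 with upper-quartile scaling, which turned all calls from 4958 higher and 1446 lower to 2614 and 3099. Under that scaling 6 members stayed higher, namely Elovl6, Scd1, Stard4, Idi1, Msmo1 and Dhcr7, and Fads1 and Fads2 stayed lower. The difference of Elovl6 was 2.21 (SE 0.33; adjusted p = 0.0030, limma) as deposited and 1.81 after scaling. Fads1 differed by −0.62 (SE 0.17; adjusted p = 0.019, limma) as deposited and by −1.05 after scaling. As deposited, 5 members were called higher and none lower without day 6, and likewise without day 7, and 10 and 1 without MEF or without day 0. Cell cycle, pluripotency and epithelial genes were higher in KO (15 of 15, 9 of 9 and 9 of 9 called).

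The early to late change itself differed between KO and KI for 9 members, all higher in KO, against 8.67% of all genes higher and 2.59% lower. Elovl6 differed by 2.74 (SE 0.53; adjusted p = 0.035, limma), Scd1 by 1.78 (SE 0.23; adjusted p = 0.029), Idi1 by 1.61 (SE 0.27; adjusted p = 0.032) and Stard4 by 1.23 (SE 0.17; adjusted p = 0.030). These 4 were also called after upper-quartile scaling. Lss (1.27), Msmo1 (1.19), Srebf2 (1.16), Dhcr7 (0.96) and Elovl5 (0.90) were not called with it. The median of all genes was 0.27, and −0.08 after scaling. Leaving out MEF, day 0, day 6 or day 7 gave no call among members, and leaving out the WT library of day 4 gave 20, as did leaving out all libraries of day 4. Without the filter on low values 2 were called.

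The order of the 3 genotypes by FPKM was also counted day by day, for the members only. At day 7 KO had the highest FPKM of the 3 genotypes for 17 of 17 sterol genes and all 3 regulators, and at day 6 for 16 of 17. KI was lowest at day 7 for 13 of 17 sterol genes and for all 3 regulators. At day 0 KI was highest for 15 of 17 sterol genes, all 3 regulators and all 10 fatty acid genes, and it was highest for all 10 fatty acid genes in MEF. These counts rest on 1 library each, and the same counts over all genes were not made. At day 7 the median of all genes reaching FPKM 5 was 0.37 for KO against WT and −0.19 for KI against WT (log2). The order is therefore not read as particular to the members.

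Set beside WT at day 7, 7 members were at least 2-fold higher in KO and none 2-fold lower, counted where 1 of the libraries reached an FPKM of 5. Of all such genes 21.5% were 2-fold higher and 9.39% lower, with a median of 0.37 on the log2 scale against 0.45 for the members. With upper-quartile scaling, and likewise with quantile normalization, 3 members were 2-fold higher and 2 lower. The values that follow are as deposited. Pmvk stood at 48.8 against 13.7, Elovl6 at 44.4 against 12.0 and Scd1 at 50.3 against 17.1. Idi1 stood at 46.6 against 21.3, Srebf2 at 81.4 against 39.0, Acly at 108 against 52.1 and Msmo1 at 223 against 109. In KI, Elovl6 alone was past 2-fold, at 5.27 against 12.0, where 2.42% of all genes were higher and 6.91% lower. In iPSC, Ebp alone was past it, at 40.5 in KO against 89.3 in WT, where 3.65% of all genes were higher and 5.01% lower. These are single libraries, so no test was made.

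Of the remaining members, Mvk, Fdps and Srebf1 were called in no comparison. Mvk (mevalonate kinase) ran from FPKM 22.9 to 63.8, Fdps (farnesyl diphosphate synthase) from 37.9 to 108, and Nsdhl (a sterol decarboxylating dehydrogenase) from 16.9 to 34.6. Each had its highest value in WT or KO at day 4. Sqle, the squalene epoxidase, ran from 31.1 to 71.6 and Insig1 from 30.5 to 60.9. Sqle (0.64), Insig1 (0.52), Pmvk (1.48) and Nsdhl (0.38) were called higher in KO than KI at the late days as deposited, and none of them with upper-quartile scaling. Srebf1 ran from 35.5 to 64.6, with its lowest value in WT at day 4.

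The branches were not uniform inside. Over the 17 libraries the correlation of each gene with the mean of the other members of its branch was highest for Sqle (Pearson r = 0.895) and Pmvk (0.872) among sterol genes, and near 0 for Sc5d (−0.004) and Hsd17b7 (−0.032). Among fatty acid genes it was highest for Elovl5 (0.864), Acaca (0.852) and Fasn (0.824), and below 0 for Fads1 (−0.148) and Fads2 (−0.242). Libraries share genotype and stage, so these are descriptions. Outside the members, among 10070 genes whose mean FPKM reached 5, the sterol mean was matched best by Abhd17c (0.905), Mknk2, Ano1, Ddc, Krt90, Nt5c3, Krt80, Hspa12b, Cnfn and Pkp1 (0.867). The fatty acid mean was matched best by Mta1 (0.905), Carm1, Vars, Cs, Donson, Shmt2, Rbbp8, Ptbp1, Psat1 and Ubap2 (0.882). Krt80, Krt90 and Pkp1 encode keratins and a desmosome protein, and Cs encodes the citrate synthase.

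Other genes of lipid handling gave the setting. Of 12 other genes of sterol synthesis and uptake, 4 (33.3%) were lower at day 4 than at day 0 and none higher. Of all genes 10% were lower and 12.3% higher in this comparison. Among the 4 were the lipoprotein receptors Lrp8 (−1.24), Vldlr (−1.01) and Scarb1 (−0.87). At the late days 4 of the 12 (33.3%) were higher in KO than in KI, no more than the 35.8% of all genes, among them Lrp8 (1.41, SE 0.17; adjusted p = 0.0018, limma). Of 7 sterol efflux and related genes tested, 3 (42.9%) were higher at day 4 and 1 (14.3%) lower, against the same shares of all genes. The efflux pump Abca1 rose by 2.30 (SE 0.27; adjusted p = 0.00016, limma), the nuclear receptor Nr1h3 by 1.37, and Soat1, which esterifies cholesterol, changed by −1.99 (SE 0.21; adjusted p = 8.7e-05, limma). From early to late Abca1 rose in WT (2.51), KO (2.10) and KI (2.55), and Nr1h3 in WT (1.73), KO (1.28) and KI (1.11). In KO, Abca1 had FPKM 4.05 at day 0 and 25.5 at day 4, with 1 library each.

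Among 11 fatty acid oxidation genes tested, 6 (54.5%) were higher at day 4 than at day 0 and none lower, against 12.3% and 10% of all genes. They were led by Cpt1a, which admits long chains to mitochondria (1.31, SE 0.20; adjusted p = 0.00078, limma), with Cpt1c (1.10) and Cpt2 (0.93). Of 18 other fatty acid synthesis genes, 7 (38.9%) were lower at day 4 and 1 (5.56%) higher, against the same shares of all genes. The elongase Elovl4 (−1.70), the dehydratase Hacd1 (−1.59) and the sphingolipid desaturase Degs1 (−1.51) were the farthest down (adjusted p from 0.00093 to 0.0030, limma). In iPSC, Fads3, a relative of Fads1 and Fads2, was −2.61 below day 7 (SE 0.35; adjusted p = 0.00020, limma). Of the 4 genes that process SREBPs, Mbtps1, the site-1 protease, rose at day 4 (0.57, SE 0.12; adjusted p = 0.0061, limma). From early to late in KI, 2 of the 4 were called higher, among them Scap, the SREBP escort (0.90, SE 0.20; adjusted p = 0.0044, limma). The site-2 protease Mbtps2 was called lower there (−0.86). Of all genes 14.6% were higher and 25.4% lower. Neither SREBP gene was called in KI, with changes below 0 where the median of all genes was −0.17.

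Whether members carry the seed match of the microRNA was read from sequence. The mature strand from the 3′ arm and the matches in members are shown with bases 2 to 8 of the microRNA, or their complement CATTTCA in the annotated 3′ untranslated regions of GENCODE M21, in capitals.
mmu-miR-203-3p: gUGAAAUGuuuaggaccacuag
Lss: cttcctgagaCATTTCAtcctggag
Nsdhl, first match: ttccataaatCATTTCAatttatcc
Nsdhl, second match: ctttgcagctCATTTCAcagaacat
Insig1: gttctcgggtCATTTCAgaggtgcg
The microRNA lies at chr12:112130927-112130948 on the plus strand (GRCm38.p6). Of the 30 members 3 (10%) held a match, against 2061 of 11959 tested genes (17.2%). Lss, with 1 match, fell in KI from early to late (above). Nsdhl, with 2, changed by −0.35 there (SE 0.24) and Insig1 by −0.50 (SE 0.23), both without a call. The 10 other members that fell in KI held no match.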

How the data were processed

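RNA was sequenced from 17 libraries, stranded and made from polyadenylated RNA. The deposited values are FPKM per gene, computed by the authors. Cufflinks 2.2.1, SAMtools 0.1.16, TopHat2 2.0.10, FastQC and Bowtie 1.0.0 are named, per the submitters' processing notes, as are mm10 and GRCm38. Not given in the sources used here are the annotation release and any scaling of libraries to each other. Read depth is unknown, so no counting interval was computed. The 41 lines that repeated 1 of 19 identifiers were summed.

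Log2(FPKM + 1) was tested with limma 3.58.1 in R 4.3.3 (empirical Bayes with a variance trend, 2-sided) on genes whose mean FPKM reached 1. Calls were made where the p adjusted by Benjamini-Hochberg over all genes tested was below 0.05. Log2 differences are on the log2(FPKM + 1) scale, which understates changes of low genes. Stage comparisons used 17 libraries with stage and genotype terms. Changes within a genotype used 15 libraries in groups of genotype and phase, and genotype comparisons added stage terms. No group had a second library, so p-values measure the spread between genotypes or days, not between cultures. The code was tested on simulated data.

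Every member is accounted for. Values by library go to called members, up to the 6 largest changes per comparison and branch, and to members against their branch. Of other lists the 3 largest called genes are named. Some listed genes are not reported here by name. Members and lists were chosen with earlier results of these data known. Alternatives were another pseudocount, other filters, upper-quartile and quantile scaling, and leaving out stages, genotypes or libraries. The comparisons of KO with KI, and leaving out WT MEF and day 4, were added after the values had been seen.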

Additional observations from a re-analysis of the deposited data

Results flagged for a closer look

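For 9 members the change from early to late libraries differed between KO and KI by a test of the difference itself (limma interaction, log2, KO minus KI). The values were 2.74 for Elovl6, 1.78 for Scd1, 1.61 for Idi1, 1.27 for Lss, 1.23 for Stard4, 1.19 for Msmo1, 1.16 for Srebf2, 0.96 for Dhcr7 and 0.90 for Elovl5. In each the KO estimate lay above that of KI. The comparison was added after the values had been seen, the median of all genes was 0.27, and Elovl6, Scd1, Idi1 and Stard4 alone of these 9 were called with upper-quartile scaling.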

How the results depend on the processing

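Scaling and single stages mattered most. With upper-quartile scaling, called members were 7 for day 4 against day 0 (4 as deposited), 14 for iPSC against MEF (8), 10 for WT late against early (5), 8 for KO against KI at the late days (17) and 4 for their early to late changes (9); quantile normalization gave 7, 14 and 11 for day 4, iPSC against MEF and KO against KI at the late days, and no filter gave 2 for the early to late changes of KO and KI. The sterol mean changed by 0.37 in KO and by −0.14 in KI with upper-quartile scaling and by −0.11 in KI with quantile normalization. The fatty acid mean changed in KO by −0.28 and −0.22, and by −0.006 with a pseudocount of 0.1, and in KI by −0.63 with both scalings. Elovl6 in KI against WT at day 7 was past 2-fold with neither scaling, which left 0 members. Nsdhl in KO against KI at the late days reversed to −0.033 with upper-quartile scaling. The causes were not tested.

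Leaving out 1 genotype gave 1 to 4 called members for day 4 against day 0, 5 to 9 for iPSC against day 7, 5 to 8 for iPSC against MEF and 0 to 0 for the other stage comparisons. Leaving out 1 stage gave 2 to 8 for WT, 0 to 14 for KO and 5 to 12 for KI late against early. It gave 0 to 21 for KO against WT and 0 to 2 for KI against WT at the late days, 5 to 21 for KO against KI, 0 to 14 for the interaction of KO with WT and 0 to 20 for that of KO with KI. Without the WT library of day 4 the counts were 1 for day 0 against MEF, 19 for KO against WT at the late days, 8 for their interaction and 20 for that of KO with KI. Without WT MEF and day 4 the last 3 were 16, 2 and 17. With WT left out at 3 stages (MEF, iPSC and day 4) there were 2 for day 4 against day 0 and 6 for iPSC against day 7, and the latter count was 7 without the late KI libraries. Over 83 calls of named members, 744 of 1005 alternative values kept the call, 260 lost it and 1 reversed. No paired analysis was possible because each group has 1 library and the labels give no replicate numbers; genotype and stage entered the fits as terms instead.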

Other observations

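In iPSC, lipid handling genes outside the synthesis branches also stood apart from day 7. Of 7 sterol efflux and related genes tested 5 were lower (71.4%, against 24.1% of all genes) and 2 higher (28.6%, against 25.6%). Higher were Nr1h2 and Apoe, the latter at FPKM 517, 22.9 and 355 at day 7 (WT, KO, KI) and 691 and 1452 in iPSC (WT, KO). Lower were, among others, Ch25h, which makes 25-hydroxycholesterol (−4.47, SE 0.34; adjusted p = 4.3e-06, limma), and Abca1 (−1.77, SE 0.30; adjusted p = 0.00092, limma). Of 11 fatty acid oxidation genes 2 (18.2%) were higher and 5 (45.5%) lower. The medium-chain dehydrogenase Acadm was higher (1.35, SE 0.14; adjusted p = 4.2e-05, limma), and the long-chain dehydrogenase Acadl was lower (−1.70, SE 0.16; adjusted p = 1.7e-05, limma). Macrophage markers were lower in iPSC than at day 7 too (9 of 15 called), and all 10 fibroblast markers were; their part in these values was not tested.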
